A study of Mus musculus with 6 samples.

Results

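The nuclear genes of oxidative phosphorylation were compared between 2 lines of EO771, a mouse mammary carcinoma cell line. A protein-coding gene was taken as a member where its symbol began with Nduf followed by a, b, c, s or v (subunits and assembly factors of complex I), was one of Sdha to Sdhd (complex II), or began with Uqcr (complex III), Cox4 to Cox8 (complex IV) or Atp5 (complex V, the ATP synthase). This rule found 93 of the 35905 genes in the tables, and 88 of them had enough counts to be tested, beside 13247 genes tested in all. One member symbol, Atp5o, also had a second gene identifier, which was listed at 0 in every library.

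The respiratory chain passes electrons from NADH and succinate through complexes I to IV to oxygen and pumps protons across the inner mitochondrial membrane. The ATP synthase uses the returning protons to make ATP. All subunits of complex II and most of the others are encoded in the nucleus, while mitochondrial DNA encodes the remaining core subunits, so each of the other complexes is built from the products of both genomes. Nuclear respiratory genes are scattered over nearly all chromosomes and are known targets of the transcription factors NRF1, GABP and YY1.

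RNA of 3 libraries each of EO771-tdT-Parental and EO771-tdT-LM2 was sequenced after preparation with an mRNA kit. The labels call both lines breast cancer cells of genotype WT and give tdT in both names. The Parental titles also carry the tag Ac6, which the LM2 titles lack and the labels do not explain. Whatever it stands for cannot be told apart from the difference between the lines. Both were grown for 48 h in RPMI 1640 with 10% fetal bovine serum, to about 75% confluence. The labels do not say how LM2 was derived, whether it is a clone, or whether the 3 libraries of a line came from separate cultures, so p-values reflect the spread among these libraries alone, which may be technical.

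Each library held 33922699 to 45849019 estimated counts, and the 20 most abundant genes took 6.80 to 6.94% of them. Of the epithelial markers, Krt18, Krt19 and Cdh1 lay below 0.3 CPM in every library, while Krt8 averaged 420 CPM in Parental and 568 CPM in LM2. Epcam, an epithelial adhesion molecule, stood at 0.0991 to 0.198 CPM in Parental and at 14.6 to 15.3 CPM in LM2. Of the mesenchymal markers, Col1a1, a fibrillar collagen, rose from 671, 653 and 652 CPM to 1295, 1371 and 1324 CPM (log2 fold change 1.01 ± 0.02 SE, edgeR adjusted p = 5.61e-19), and Vim, an intermediate filament, from 3919, 3950 and 3832 CPM to 4850, 4777 and 4700 CPM (0.29 ± 0.02, edgeR adjusted p = 3.60e-11). The part of these marker differences in the results below was not tested. Leukocyte markers (Ptprc, Cd68, Cd3e) did not exceed 2.96 CPM, endothelial markers (Pecam1, Cdh5, Kdr) 4.08 CPM, erythroid markers (Hbb-bs, Hba-a1) 1.78 CPM and adipocyte markers (Adipoq, Plin1, Fabp4) 0.397 CPM. CPM values are counts scaled to the size of each library. In such bulk libraries, fewer cells with a gene's RNA and less RNA per cell cannot be told apart.

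More nuclear respiratory genes fell than rose in LM2, and most of the differences were small. With edgeR's quasi-likelihood test and Benjamini-Hochberg adjustment over all 13247 genes, 45 of the 88 tested members (51.1%) were lower in LM2 and 15 (17.0%) were higher at an adjusted p below 0.05. The 15 include Cox6a2, with 5 counts over the Parental and 52 over the LM2 libraries, which passed the low-count filter only through LM2. The background is high in this comparison, since 62.4% of all tested genes were called, 31.4% as higher and 31.1% as lower. The 6 libraries separated without overlap between the lines for 58 members (65.9%), beside 67.0% of all tested genes. The median log2 fold change (LM2 minus Parental) was -0.08 over the members and 0.00 over all tested genes, and 36 members lay within 0.1 of 0. Without LM2 replicate 1 the members' median was -0.12.

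Abundance differed between the members and the other genes, and the balance of calls moved with it. Among the 1634 tested protein-coding genes of at least 100 TPM (a level corrected for transcript length and library size) in Parental, 53.5% were lower and 24.3% higher, with a median log2 fold change of -0.09. The 65 members at that level had 38 lower (58.5%) and 11 higher (16.9%) and a median of -0.09. The share of lower genes among these 65 members thus lay near that of abundant genes, a set that includes them. It lay less near that of all tested genes. The members' share of higher genes (16.9%) lay below that of abundant genes (24.3%) and of all tested genes (31.4%).

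A second test, edgeR's glmTreat, asked for a change beyond 1.2-fold. It called 11 members lower (Ndufa12, Ndufa5, Ndufa9, Ndufb2, Ndufb7, Ndufs7, Ndufa4, Atp5b, Atp5d, Atp5k and Atp5mpl) and 3 higher (Ndufaf6, Ndufs5 and Cox6a2), while 12.3% of all tested genes passed as lower and 16.3% as higher. Cox6a2 passed the low-count filter only through the LM2 libraries, where it is high, so its call rests on that filter. Of these 14, 12 sit on chromosomes 4, 6, 8, 10 and 12, where many neighbouring genes differed too, and only Atp5k and Cox6a2 sit elsewhere.

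**Figure D1:**
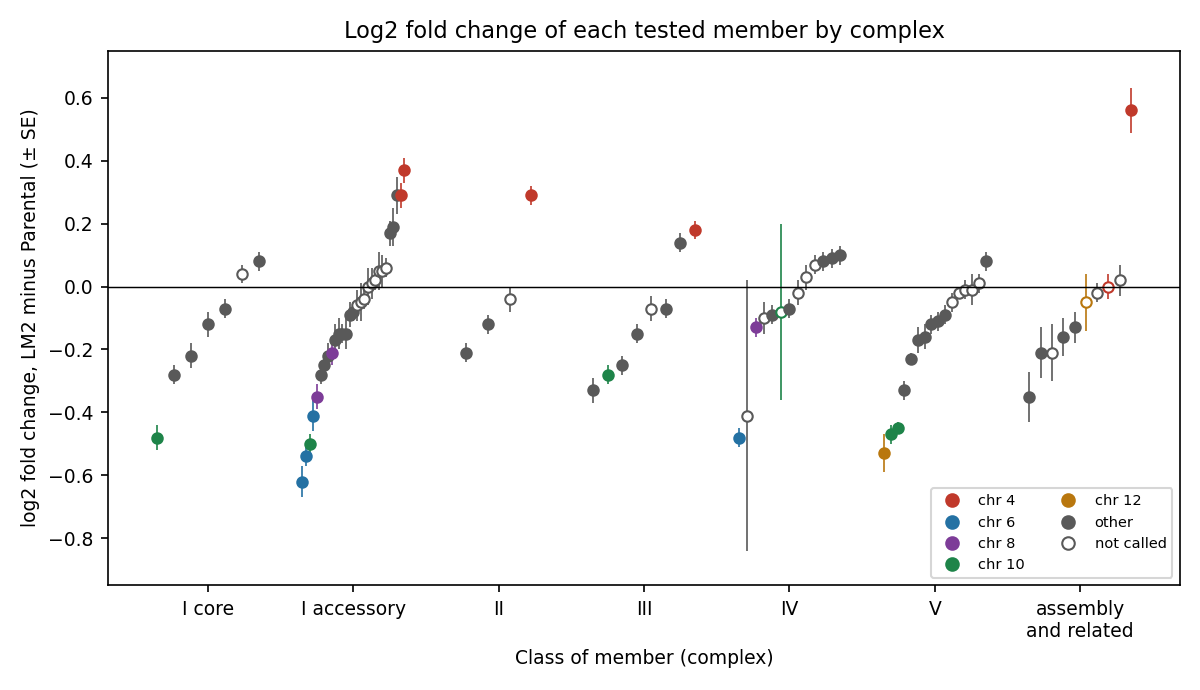
Log2 fold change of each tested member (LM2 minus Parental, with its standard error as a bar) on the vertical axis, by complex on the horizontal axis. Filled points passed an adjusted p of 0.05, colours mark 5 chromosomes, and Cox6a2, at 3.46, lies above the axis and is not drawn. In complex I the lowest points belong to chromosomes 6 and 10 and the highest to chromosome 4.

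Complex I, the NADH dehydrogenase, has the most nuclear subunits, and all 36 members that encode them were tested. Of these, 20 fell (55.6%), 6 rose (16.7%) and 10 were not called, with a median log2 fold change of -0.08. This and the counts of the other complexes stand beside 31.1% lower and 31.4% higher over all tested genes. The 7 core subunits, which carry the flavin and the iron-sulfur clusters, gave 5 lower (71.4%), 1 higher (14.3%) and 1 not called. The 29 accessory subunits gave 15 lower (51.7%), 5 higher (17.2%) and 9 not called.

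Ndufa5, an accessory subunit of the arm that reaches into the matrix, fell most. It stood at 44.7, 44.2 and 44.9 CPM in the Parental libraries and at 30.7, 27.5 and 28.6 CPM in the LM2 libraries. Every LM2 library lay below every Parental library, and the log2 fold change was -0.62 ± 0.05 (SE; edgeR adjusted p = 1.03e-10). Ndufa9, which helps to hold that arm near the quinone site, was at 112, 110 and 113 CPM in Parental against 75.7, 78.6 and 77.2 CPM in LM2 (-0.54 ± 0.03, edgeR adjusted p = 7.22e-13). Ndufa12, another accessory subunit of the matrix arm, was at 105, 102 and 99.7 CPM against 75.7, 68.9 and 72.4 CPM (-0.50 ± 0.03, edgeR adjusted p = 3.70e-11). Of its 31-base words 20.7% also occur in transcripts of other genes, most of them in the gene model Gm15920, so part of its count is uncertain.

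Among the core subunits, Ndufs7, which binds the last iron-sulfur cluster before the quinone, fell from 56.9, 53.8 and 51.4 CPM to 39.1, 39.6 and 37.7 CPM (-0.48 ± 0.04, edgeR adjusted p = 1.91e-09). The groups did not overlap. Ndufv2, at the NADH-oxidising tip, fell by less, from 93.8, 98.9 and 95.0 CPM to 80.8, 79.9 and 76.6 CPM (-0.28 ± 0.03). Its partner Ndufv1, which binds the flavin, went the other way by a small step, from 117, 118 and 114 CPM to 123, 122 and 125 CPM (0.08 ± 0.03). The largest core subunit, Ndufs1, was not called at 111, 106 and 112 CPM against 114, 113 and 111 CPM.

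Ndufs5, an accessory subunit on the side of the intermembrane space, rose most among the subunits of complex I. Its 3 Parental libraries had 41.2, 40.1 and 40.0 CPM and its LM2 libraries 53.6, 50.1 and 53.1 CPM. The lines did not overlap and the log2 fold change was 0.37 ± 0.04 (edgeR adjusted p = 4.11e-08). Ndufb6, a subunit of the membrane arm, rose from 46.0, 44.1 and 43.6 CPM to 54.4, 54.2 and 55.3 CPM (0.29 ± 0.04). Ndufb4, also of the membrane arm, rose from 30.2, 25.8 and 26.0 CPM to 34.7, 32.1 and 33.5 CPM (0.29 ± 0.06). All 3 genes share 31-base words with other genes: Ndufs5 26.5% with BC002163, Ndufb6 34.4% with Smim27, and Ndufb4 19.1% with the pseudogene Ndufb4c, which was itself not called.

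The remaining accessory subunits that fell past 1.2-fold were Ndufb2 and Ndufb7, both of the membrane arm. Ndufb2 had 43.6, 42.5 and 43.3 CPM in Parental and 33.6, 33.3 and 30.4 CPM in LM2 (-0.41 ± 0.05), and Ndufb7 had 57.4, 54.2 and 58.4 CPM against 44.0, 45.5 and 43.9 CPM (-0.35 ± 0.04). Ndufb10, next in size at -0.28 ± 0.03, was steady in Parental (67.1, 67.0 and 67.0 CPM) and lower in each LM2 library (57.5, 55.4 and 53.2 CPM). Some small changes hung on single libraries. Ndufa3 was no longer called without Parental replicate 1 (edgeR adjusted p = 0.0579), nor Ndufv1 without Parental replicate 3 (edgeR adjusted p = 0.0658), nor Ndufv3 without LM2 replicate 2 (edgeR adjusted p = 0.0543). Ndufa7 and Ndufa8 each lost their call without any of 4 libraries (edgeR adjusted p up to 0.232).

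Complex II, the succinate dehydrogenase, also serves in the citric acid cycle, and its 4 genes did not move together. Sdhb, the iron-sulfur subunit, rose from 88.7, 91.9 and 86.4 CPM to 110, 104 and 112 CPM (0.29 ± 0.03, edgeR adjusted p = 9.42e-08). Sdhd, a membrane anchor, fell from 124, 125 and 123 CPM to 109, 105 and 108 CPM (-0.21 ± 0.03, edgeR adjusted p = 8.15e-07), and Sdha, the flavin subunit, fell from 199, 192 and 199 CPM to 180, 181 and 181 CPM (-0.12 ± 0.03). Neither set overlapped between the lines. Sdhc, the other anchor, was not called and its libraries overlapped (69.9 to 72.2 CPM and 65.0 to 72.4 CPM).

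In complex III, the cytochrome bc1 complex, 5 of 8 members fell, 2 rose and 1 was not called, with a median log2 fold change of -0.11. Uqcrb fell most, from 39.9, 40.3 and 38.6 CPM to 31.1, 31.2 and 32.3 CPM (-0.33 ± 0.04, edgeR adjusted p = 9.71e-07), although other genes hold 34.8% of its 31-base words too. The small subunit Uqcr11 followed at 93.1, 89.4 and 90.9 CPM against 74.9, 73.4 and 76.3 CPM (-0.28 ± 0.03), and the large core protein Uqcrc1 at 215, 204 and 204 CPM against 172, 176 and 176 CPM (-0.25 ± 0.03). All 3 separated the lines.

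Uqcrh, the hinge protein next to cytochrome c1, rose from 79.5, 82.2 and 79.9 CPM to 93.2, 90.7 and 89.8 CPM (0.18 ± 0.03, edgeR adjusted p = 2.27e-05). Uqcrq, the most abundant member of this complex per length at 690 TPM in Parental, rose from 131, 123 and 132 CPM to 146, 139 and 141 CPM (0.14 ± 0.03). The Rieske iron-sulfur protein gene Uqcrfs1 differed least among the called members at -0.07 ± 0.03 and lost its call without Parental replicate 1 or 2 or LM2 replicate 2 or 3 (edgeR adjusted p = 0.0841 to 0.105). The electron carrier that links this complex to the next, cytochrome c, is no member of the list. Its gene Cycs stood at 117, 108 and 113 CPM against 92.2, 88.7 and 84.8 CPM (-0.35 ± 0.03, edgeR adjusted p = 2.64e-08). Cyc1, the gene of cytochrome c1 in complex III, is outside the list too and went the other way. It rose from 221, 218 and 225 CPM to 243, 239 and 240 CPM (0.12 ± 0.02, edgeR adjusted p = 0.000163).

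Complex IV, the cytochrome c oxidase, had as many higher as lower calls only with Cox6a2, whose call rests on the low-count filter. Of the 19 members of this complex 14 were tested, with a median log2 fold change of -0.05. Of these, 4 were higher (28.6%, Cox6a2 among them), 4 lower (28.6%) and 6 not called. Past 1.2-fold were only Cox6a2, a form of very low counts described with the paralogs, and Ndufa4, named for complex I but now placed in complex IV. Ndufa4 had 120, 119 and 117 CPM in the Parental libraries and 86.5, 82.4 and 86.9 CPM in the LM2 libraries, with no overlap (-0.48 ± 0.03, edgeR adjusted p = 6.21e-12).

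Cox4i1, the most abundant member of complex IV at 724 TPM in Parental, fell from 268, 265 and 256 CPM to 245, 238 and 236 CPM (-0.13 ± 0.03, edgeR adjusted p = 0.000104). Cox6c rose from 102, 105 and 108 CPM to 113, 112 and 113 CPM (0.10 ± 0.03, edgeR adjusted p = 0.00382). Other calls in this complex were close to the threshold. The number of higher members went from 4 to 2 without Parental replicate 2, where Cox6a1 (0.07, edgeR adjusted p = 0.0838) and Cox8a (0.08, edgeR adjusted p = 0.0758) dropped out. The number of lower members went from 4 to 2 without Parental replicate 1, Parental replicate 3 or LM2 replicate 2, where Cox6b1 and Cox7b dropped out (edgeR adjusted p = 0.0509 to 0.143). In addition, Cox6b1 was not called without LM2 replicate 3, Cox6a1 without Parental replicate 1 or LM2 replicate 3, and Cox8a without Parental replicate 3, LM2 replicate 1 or LM2 replicate 2 (edgeR adjusted p = 0.0526 to 0.131).

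Complex V showed the most one-sided counts, with 10 of 16 members lower (62.5%), 1 higher (6.25%) and 5 not called. The median log2 fold change was -0.12. Complex III had the same share of lower members. All members of complex V reached at least 102 TPM in Parental. Over all tested protein-coding genes of at least 100 TPM, 53.5% were lower and 24.3% higher. Atp5b encodes the catalytic beta subunit and is the most abundant member per length, at 2166 TPM in Parental and 1682 TPM in LM2. Its libraries had 1472, 1477 and 1484 CPM in Parental and 1085, 1087 and 1070 CPM in LM2, so that replicates were tight and the gap between the lines was wide (-0.45 ± 0.02, edgeR adjusted p = 5.10e-14). Atp5a1, the gene of the partner alpha subunit, fell by less, from 800, 825 and 798 CPM to 708, 682 and 672 CPM (-0.23 ± 0.02). Atp5c1, the gamma subunit of the rotating central stalk, was not called (236, 241 and 231 CPM against 232, 232 and 234 CPM).

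Atp5d, the delta subunit of the same stalk, fell from 212, 202 and 206 CPM to 151, 149 and 148 CPM (-0.47 ± 0.03, edgeR adjusted p = 5.86e-13). Atp5mpl, a small proteolipid attached to the membrane part, fell from 48.0, 47.2 and 47.7 CPM to 36.2, 29.6 and 33.2 CPM (-0.53 ± 0.06), the largest drop of the complex. Atp5k, subunit e of the membrane part, fell from 69.4, 67.9 and 66.4 CPM to 55.3, 53.6 and 53.2 CPM (-0.33 ± 0.03, edgeR adjusted p = 1.78e-08). In all 3 genes the lines did not overlap. The single higher member, Atp5f1 of the peripheral stalk, had 195, 200 and 195 CPM against 212, 204 and 206 CPM (0.08 ± 0.03), and it lost its call without Parental replicate 1, Parental replicate 3 or LM2 replicate 1 (edgeR adjusted p = 0.0574 to 0.0764). Atp5g3 lost its call without Parental replicate 1 (-0.07, edgeR adjusted p = 0.0629).

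The 10 assembly factors and related members gave 4 lower (40.0%), 1 higher (10.0%) and 5 not called. Ndufaf6, an early assembly factor of complex I, rose from 12.1, 10.2 and 12.2 CPM to 17.9, 17.0 and 16.3 CPM (0.56 ± 0.07, edgeR adjusted p = 3.64e-07), the largest rise of any member above 5 CPM. Ndufaf8 fell from 13.5, 12.2 and 12.9 CPM to 11.3, 9.75 and 9.38 CPM (-0.35 ± 0.08, edgeR adjusted p = 0.000454). The other 3 lower calls (Ndufaf1, Ndufaf5 and Ndufaf7) were weak: without Parental replicate 1 only Ndufaf8 remained called, and without Parental replicate 2, Parental replicate 3 or LM2 replicate 2 the count was 2. Ndufaf5 was also not called without LM2 replicate 1 (edgeR adjusted p = 0.0881). Ndufaf2 was not called, and 65.1% of its 31-base words lie in the overlapping gene model B230220B15Rik, so its count is uncertain. Ndufaf4, another complex I assembly factor on chromosome 4 with Ndufaf6, was level at 44.9, 43.6 and 45.8 CPM against 47.4, 44.9 and 42.5 CPM.

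On chromosomes 4, 6, 8 and 10 the called members of each chromosome moved one way, across complexes, while chromosome 12 had 1 called member. This was not particular to these chromosomes. All called members also fell on chromosomes 2 (6 members), 13 (4), 9 (3) and X (2). Of the other genes there, 29.5%, 24.6%, 22.5% and 39.1% were lower. All 6 members on chromosome 4 were tested, and 5 rose with none lower: Ndufaf6, Ndufb6, Ndufs5, Sdhb and Uqcrh, from complexes I, II and III and an assembly factor. On that chromosome 73.6% of the 829 tested genes were called higher and 4.58% lower, and the members' median log2 fold change of 0.29 lay below the 0.39 of its other genes. The members' rise was thus no larger than that of their chromosome.

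On chromosome 6 all 4 members (Ndufa4, Ndufa5, Ndufb2 and Ndufa9) fell, beside 49.4% of the 617 tested genes there. Their median of -0.51 lay below the -0.17 of the other genes of chromosome 6. On chromosome 10, 5 of 6 members fell (Atp5d, Ndufs7, Uqcr11, Ndufa12 and Atp5b) beside 62.8% of 662 genes, with a median of -0.46 for the members and -0.33 for the other genes. All 3 members on chromosome 8 (Ndufa13, Ndufb7 and Cox4i1) fell beside 64.5% of 702 genes, and their median of -0.21 was smaller in size than the -0.31 of the other genes. On chromosome 12 Atp5mpl fell and Atp5s was not called, beside 51.3% lower of 460 genes.

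**Figure D2:**
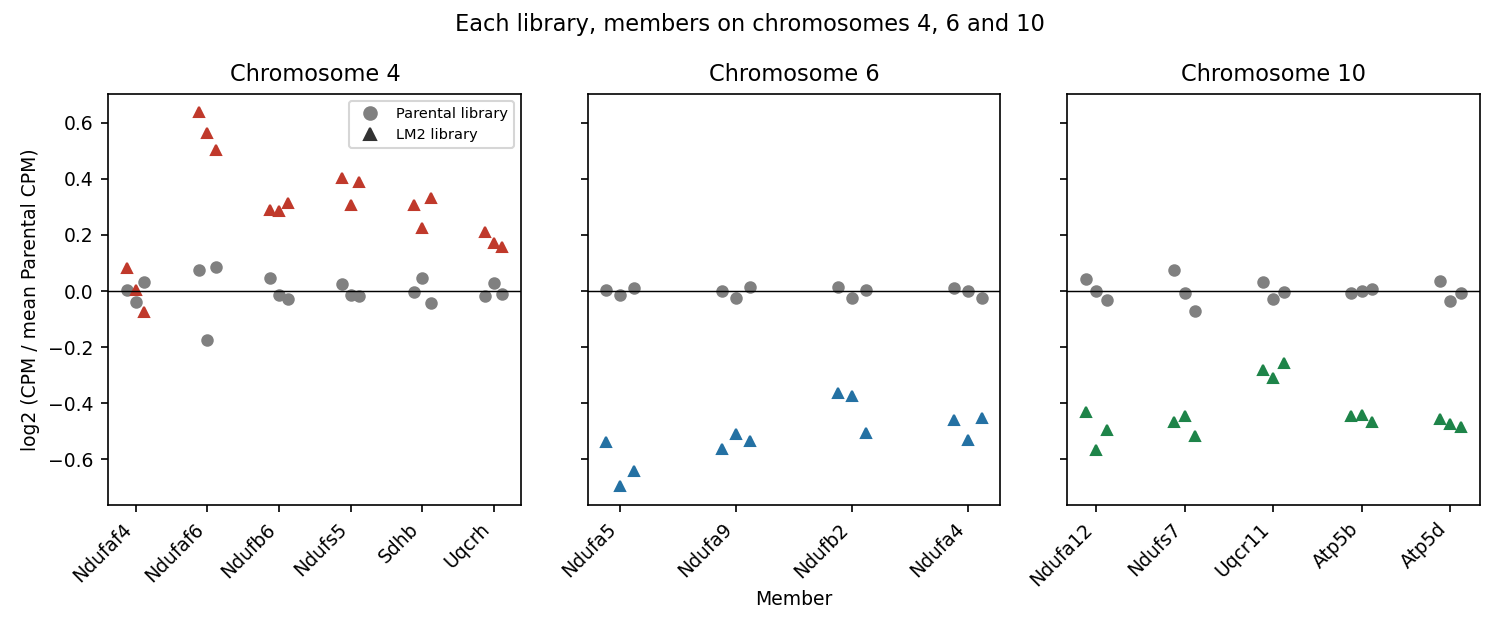
Each library's CPM relative to the mean of the Parental libraries (log2, vertical axis) for members on chromosomes 4, 6 and 10; circles are Parental and triangles LM2 libraries. Ndufa4l2 of chromosome 10, near 1 CPM, is left out. On chromosome 4 the triangles stand above the circles except for Ndufaf4, and on chromosomes 6 and 10 all triangles stand below.

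Each member was also set beside the 10 tested genes on either side of it along the chromosome. Over the 85 members that reached a mean of 5 CPM in either line, Pearson's r between the member's log2 fold change and the median of its neighbours was 0.71, a description across genes that share the same 6 libraries. Over all 88 tested members, the very low Cox6a2 among them, it was 0.38, and over all tested genes, likewise without the 5 CPM floor, 0.21. No value was computed over all genes at that floor, so the 0.71 has no such value beside it. Among the 85, off chromosomes 4, 6, 8, 10 and 12, it was 0.17 over 65 members. Subtracting the neighbours' median took the SD of the 85 values from 0.213 to 0.154 and that of all 88 from 0.435 to 0.402. After it, 60 of all 88 tested members lay below their neighbours and 28 above, with a median of -0.08. Members furthest below their neighbours above 5 CPM were Ndufaf8 (-0.35 against 0.03), Ndufa5 (-0.62 against -0.25), Ndufb10 (-0.28 against 0.09), Ndufaf4 (0.00 against 0.37) and Ndufv2 (-0.28 against 0.08).

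**Figure D3:**
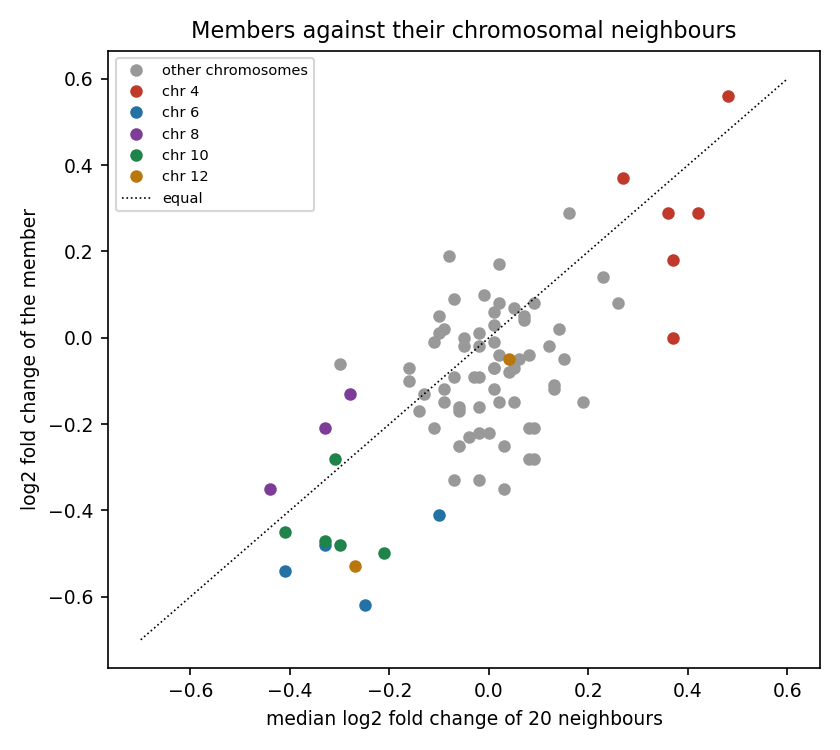
Log2 fold change of each of the 85 members of at least 5 CPM (vertical axis) against the median of its 20 neighbouring tested genes (horizontal axis), with the line of equality dotted. Members of chromosomes 4, 6, 8 and 10 lie mostly toward the ends of both axes, those of chromosome 6 below the line, and the grey points of other chromosomes cluster near 0, more of them below the line than above.

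The 67 tested members off those 5 chromosomes gave 32 lower (47.8%) and 10 higher (14.9%), with a median of -0.07. Over all 9977 tested genes off the same chromosomes, 26.7% were lower and 31.9% higher, with a median of 0.01. Past 1.2-fold only Cox6a2 was higher and only Atp5k lower among these members, beside 1513 and 728 of the 9977 genes. A tilt towards lower values was thus also present off the 5 chromosomes, at small size. Its relation to the high abundance of the members was not tested there.

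Summed levels per length showed how the differences added up. The 16 genes of complex V summed to 7831 ± 28.5 TPM (SD, n = 3) in Parental and 6856 ± 29.9 TPM in LM2, a change of -12.5%, or -8.68% without Atp5b. The 36 genes of complex I summed to 5757 ± 60.4 and 5427 ± 51.5 TPM (-5.73%). In both, the libraries of the lines did not overlap. Complex II (518 and 519 TPM), complex III (2677 and 2625 TPM) and complex IV (4654 and 4613 TPM) changed by 0.282%, -1.93% and -0.887%, and their libraries overlapped. On the CPM scale, not corrected for length, complex II came to -3.09% and complexes III and IV to -6.18% and -4.07%, without overlap. Whether length accounts for the difference between the scales was not tested. All 93 members together held 21922 ± 97.4 TPM in Parental and 20533 ± 64.9 TPM in LM2 (-6.33%).

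**Figure D4:**
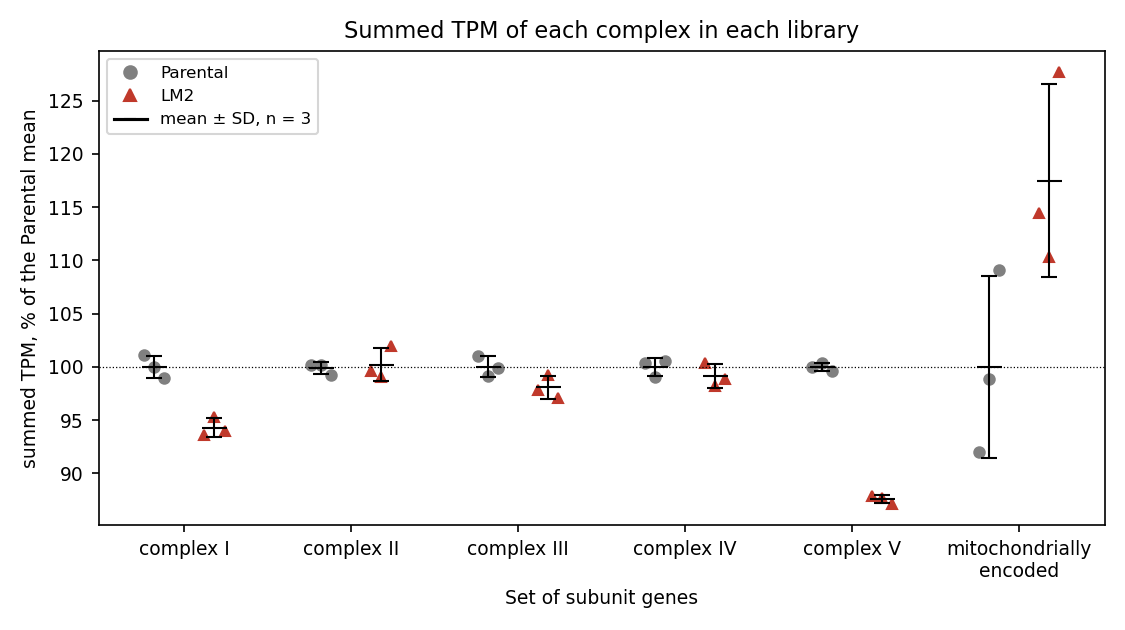
Summed TPM of the subunit genes of each complex in each library, as percent of the Parental mean (vertical axis); circles are Parental, triangles LM2 libraries and bars the mean ± SD of 3 libraries. Complexes I and V are lower in every LM2 library, complexes II to IV overlap, and the 13 mitochondrially encoded genes are higher and more spread.

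The 13 subunits encoded by mitochondrial DNA went the other way in level. They summed to 31194 ± 2677 TPM in Parental (28708, 30846 and 34027 TPM) and 36642 ± 2830 TPM in LM2 (35700, 34404 and 39823 TPM), 17.5% more. The lowest LM2 library lay just above the highest Parental library, and on the CPM scale the lines overlapped. The largest single part of the TPM sums was mt-Atp8, at 9384 TPM in Parental and 11381 TPM in LM2. On the CPM scale this gene held 365 of 11450 CPM in Parental and 431 of 13130 CPM in LM2. By gene, mt-Co1 (0.31 ± 0.09, edgeR adjusted p = 0.0453) and mt-Nd4 (0.17 ± 0.05, edgeR adjusted p = 0.0318) were called higher, 11 were not called, and 12 of 13 log2 fold changes were above 0. The ratio of nuclear to mitochondrially encoded subunits, in summed TPM, was 0.751, 0.694 and 0.628 in Parental and 0.562, 0.584 and 0.501 in LM2. These transcripts took 1.06 to 1.24% of counts in Parental and 1.24 to 1.43% in LM2 after preparation with an mRNA kit, and the part of library preparation in this difference was not tested.

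Several subunits of complexes IV and V have paralogs that replace each other between tissues. The forms common to most tissues dominated in both lines. Cox6a2, the heart and muscle form of subunit VIa, had 0, 2 and 3 estimated counts in Parental and 16, 12 and 24 in LM2, with no overlap. Its log2 fold change was 3.46 ± 0.63 (edgeR adjusted p = 5.42e-05), and it was 2.83 without Parental replicate 1 and 4.12 without Parental replicate 3. With so few counts it passed the low-count filter only through the LM2 libraries, so its call and the size of its fold rest on that choice, and it was not tested under a filter of 1 CPM in 3 libraries. Even so it gave 0.287% of the TPM of the Cox6a pair in LM2 and 0.0272% in Parental, the rest being Cox6a1.

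Cox4i2, the form of subunit IV known from lung and for its rise in low oxygen, was too low to be tested, with 4 counts over the Parental libraries and 18 over the LM2 libraries. Its share of the Cox4 pair was 0.0132% and 0.0730%. Ndufa4l2, known as a target of the hypoxia factor HIF1, was not called (1.12, 0.909 and 0.743 CPM against 1.01, 0.860 and 0.760 CPM). Cox7a1, the muscle form of subunit VIIa, was not called either (46 and 30 counts). Cox6b2, Cox7b2, Cox8b and Cox8c, of which some are known from testis or muscle, had at most 11 counts over a line and were not tested.

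Among forms that are all expressed, shares were nearly the same in the lines. The c subunit of the ATP synthase is encoded by Atp5g1, Atp5g2 and Atp5g3, which make the same mature protein. They gave 32.4%, 9.74% and 57.8% of their summed TPM in Parental and 31.4%, 10.4% and 58.3% in LM2. Of the words of Atp5g2, 40.2% occur in other genes. Cox7a2 gave 51.1% and 51.3% of the Cox7a group, and Cox7a2l, whose product helps to join complexes III and IV, gave 48.3% and 48.2%.

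Ndufv3, an accessory subunit at the NADH-oxidising tip of complex I, changed in the mixture of its transcripts. The gene has a short form and a long form that differ by 1 coding exon of 1092 bases (364 codons), at chr17:31527310-31528401 on the plus strand of GRCm38. The exon keeps the reading frame. The following junctions tell the forms apart, with bases of the extra exon in capitals and 30 bases on either side of each join.
Ndufv3 short, exon 2 to last exon: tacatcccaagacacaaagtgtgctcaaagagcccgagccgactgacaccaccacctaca
Ndufv3 long, exon 2 to extra exon: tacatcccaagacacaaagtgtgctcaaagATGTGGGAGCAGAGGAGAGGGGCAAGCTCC
Ndufv3 long, extra exon to last exon: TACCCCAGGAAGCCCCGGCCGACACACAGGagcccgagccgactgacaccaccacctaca
The capitals occur only in the long form, and the direct join in the first sequence only in the short form.

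The short transcript took 76.9%, 75.9% and 74.0% of the gene's estimated counts in the Parental libraries and 63.6%, 60.2% and 61.6% in the LM2 libraries. The long one took 19.2%, 20.8% and 22.1% against 34.6%, 37.6% and 34.3%. No library of one line reached the range of the other. The long form gained 14.8 percentage points, with an exact two-sided permutation p of 0.1, the smallest that 3 against 3 libraries can give. The gene as a whole had 23.3, 21.5 and 20.7 CPM in Parental and 24.1, 26.7 and 24.3 CPM in LM2 (0.19 ± 0.06, edgeR adjusted p = 0.00610). Longer transcripts yield more fragments, and with offsets for the effective length the gene-level value was -0.02 (edgeR adjusted p = 0.870). In TPM the gene averaged 90.7 in Parental and 92.0 in LM2.

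**Figure D5:**
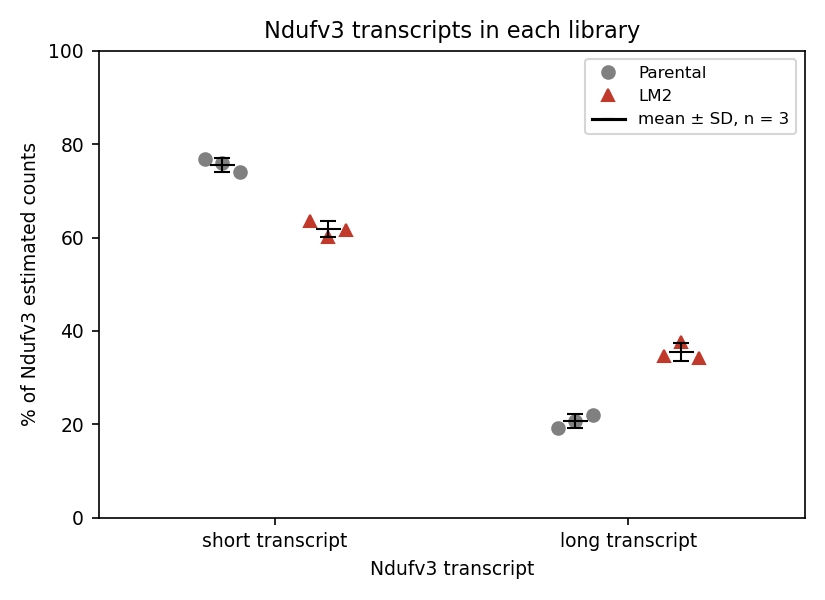
Share of the estimated counts of Ndufv3 (vertical axis, percent) assigned to its short and long transcript (horizontal axis) in each library; circles are Parental, triangles LM2 libraries and bars the mean ± SD of 3 libraries. The short form is lower and the long form higher in all 3 LM2 libraries.

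Atp5c1, known for a muscle form made by skipping an exon, was the other gene fixed for this comparison, and its shift was small. Transcript Atp5c1-203 took 92.5 ± 0.415% (SD, n = 3) of its counts in Parental and 93.5 ± 0.220% in LM2, and Atp5c1-201 took 7.15 ± 0.506% and 6.14 ± 0.133%. The lines did not overlap, again with the smallest exact permutation p of 0.1. For 0 of the 88 tested members did the most abundant transcript differ between the lines. Transcript shares rest on the authors' assignment of reads, whose uncertainty was not measured here.

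Promoters of the members were searched for words of factors known to act on nuclear respiratory genes, on both strands, in RefSeq windows of GRCm38.p6 from 250 bases before to 50 bases after the start. Of the 93 members 74 matched by symbol. The NRF1 word, GCGCA and GCGC with any 1 base between them, occurred in 25.7% of these, in 11.3% of the 9829 tested genes in the table and in 5.19% of all its 27025 genes. Its palindromic form occurred in 9.46%, 2.33% and 1.07%. The ETS word CCGGAAG, bound by GABP, occurred in 24.3%, 20.4% and 9.93%, and the YY1 word AAGATGGC in 13.5%, 5.28% and 3.19%.

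Members with the NRF1 word were found in each class of call: 4 of 10 matched members that were higher, 9 of 40 that were lower and 6 of 21 that were not called. To show the word in members of each kind, stretches before the start site that lie outside annotated exons are given below, with the word in capitals, from Ndufs5 (higher, chr4:123718203-123718352, minus strand), Cox6a1 (higher, chr5:115348982-115349129, minus strand), Ndufaf4 (not called, chr4:24897933-24898082, plus strand) and Sdha (lower, chr13:74350281-74350308, minus strand), all of GRCm38.p6.
Ndufs5: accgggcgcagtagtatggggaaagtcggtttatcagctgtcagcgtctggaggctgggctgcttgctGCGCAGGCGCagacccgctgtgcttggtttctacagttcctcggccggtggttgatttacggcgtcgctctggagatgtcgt
Cox6a1: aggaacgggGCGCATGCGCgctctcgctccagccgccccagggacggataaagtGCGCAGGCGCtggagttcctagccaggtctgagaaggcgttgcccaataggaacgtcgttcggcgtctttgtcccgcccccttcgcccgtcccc
Ndufaf4: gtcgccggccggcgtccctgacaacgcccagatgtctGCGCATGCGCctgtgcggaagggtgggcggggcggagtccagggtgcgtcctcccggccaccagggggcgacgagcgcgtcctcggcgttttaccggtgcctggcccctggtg
Sdha: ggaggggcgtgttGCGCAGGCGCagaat
The word begins 98 bases before the start in Ndufs5, 162 and 117 bases before it in Cox6a1, 113 bases in Ndufaf4 and 55 bases in Sdha. Sdha holds the word at 2 further places, 98 and 10 bases before the start, outside the stretch shown. A match is a description of the letters and was not tested for binding.

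The factors themselves were among 18 regulators listed, of which 16 were tested, 3 higher and 8 lower. These counts stand beside 31.4% higher and 31.1% lower over all tested genes. Nrf1, on chromosome 6, had 62.0, 61.2 and 63.1 CPM in Parental and 35.9, 40.4 and 38.0 CPM in LM2 (-0.70 ± 0.04, edgeR adjusted p = 1.79e-12). Tfam, the packaging and transcription factor of mitochondrial DNA, on chromosome 10, had 82.1, 79.6 and 82.7 CPM against 60.7, 55.7 and 56.0 CPM (-0.50 ± 0.04). Both separated the lines by a wide gap, and both sit on chromosomes where most called genes were lower. The genes of the other searched factors, Gabpa (-0.16 ± 0.03) and Gabpb1 (-0.21 ± 0.05) of GABP and Yy1 (-0.35 ± 0.03), were also called lower. Myc (0.29 ± 0.02) and Hif1a (0.24 ± 0.03) had the largest rises of the list. The coactivators Ppargc1a and Ppargc1b were below 0.3 CPM in every library.

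The other mitochondrial lists below also had more lower than higher calls. Over all tested genes 31.1% were lower and 31.4% higher, and over abundant protein-coding genes (at least 100 TPM) 53.5% and 24.3%. Of 44 assembly factors outside the rule, 19 were lower (43.2%) and 8 higher (18.2%), with a median log2 fold change of -0.09. Of 14 enzymes of the citric acid cycle, 7 were lower, with Dlst (-0.42 ± 0.02) and Cs, the citrate synthase (-0.38 ± 0.02), in front, and 3 were higher, led by Idh2 (0.31 ± 0.03) and Mdh2 (0.21 ± 0.02). Of 13 genes of the outer membrane and protein import, 8 were lower (61.5%) and 0 higher, with Vdac3, a channel of the outer membrane, at -0.50 ± 0.03. Of 4 tested genes of carriers and the inhibitor of the ATP synthase, 3 were lower (75.0%), such as the phosphate carrier Slc25a3 (-0.45 ± 0.02). The fourth, Atpif1, the inhibitor, on chromosome 4, rose from 77.8, 81.8 and 76.5 CPM to 121, 118 and 124 CPM (0.62 ± 0.03, edgeR adjusted p = 1.68e-13).

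The authors' deposited table of log fold changes holds 82 of the 88 tested members, with a median of -0.07. For 77 of them the value there had the same sign as here or was 0, and for 5 the opposite sign. The largest gap was 0.38, for Ndufs8, a core iron-sulfur subunit of complex I. The authors' deposited table gives 0.26 for Ndufs8, while its libraries here had 57.6, 57.0 and 55.1 CPM in Parental and 53.5, 52.5 and 50.3 CPM in LM2 (-0.12 ± 0.04, edgeR adjusted p = 0.00654). With offsets for effective length, the value here was -0.08 and not called (edgeR adjusted p = 0.158). For Ndufv3, the authors' deposited table gives -0.01.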

How the data were processed

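For each library the authors deposited estimated counts and TPM of 117486 transcripts from kallisto 0.46.2 and build GRCm39, per the submitters' processing notes. These notes also name FastQC, MultiQC and edgeR 3.32.1. No source used here gives the transcript set or the handling of strand, so reads of overlapping genes cannot be told apart. The deposited log fold changes of the authors were read as log2, LM2 minus Parental, since they track the values computed here. Transcript and effective lengths (bases) were used as deposited.

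Estimated counts were summed per gene with GENCODE M21 (GRCm38) names, leaving 0.426 to 0.448% of counts unmatched. They were rounded, filtered (filterByExpr), TMM-scaled and fitted over all genes in edgeR 4.0.16 (R 4.3.3), with limma 3.58.1 and DESeq2 1.42.0 as alternatives. Calls needed an adjusted p (Benjamini-Hochberg) below 0.05, and glmTreat tested against a 1.2-fold change. The scripts were tested on simulated data. Groups came from the titles, and Ac6, a tag in the Parental titles alone, was ignored, so it cannot be told apart from the line.

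The members and lists were chosen with earlier results of these data known. Full values were given per complex and direction to the 3 called members with the largest change among those that reached 5 CPM, to the most abundant member, to members past 1.2-fold and to paralogs. From other lists up to 2 called genes per direction were named, and in addition the genes of the searched factors GABP and YY1. Ndufaf4, Cycs and others named for contrast were chosen after their values were seen. Alternatives covered scaling, filters, tests, length offsets, a replicate block and leaving out each library.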

Additional observations from a re-analysis of the deposited data

How the results depend on the processing

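Of the 60 called members, 42 were called in the same direction in each of 16 other settings that tested them (Cox6a2 was not tested with at least 1 CPM in 3 libraries), 18 lost their call in at least 1, and 8 uncalled members gained one. Of the 14 members past 1.2-fold, 10 passed in each setting that tested them, and Ndufb2, Ndufb7, Ndufs5 and Atp5k did not. Without single libraries, lower members numbered 35 to 48 and higher members 12 to 14, and past 1.2-fold 9 to 12 and 3 to 4. Lower assembly factors (4) numbered 1 with DESeq2, 1 with length offsets and 1 to 4 without single libraries. Higher members of complex IV (4) numbered 2 with upper quartile scaling, 2 without the low-count filter and 2 to 4 without single libraries. Its lower members (4) numbered 2 with length offsets and 2 to 5 without single libraries. The higher member of complex V became 0 with upper quartile scaling, without the filter and with length offsets, and 0 to 1 without single libraries. The members' median of -0.08 was -0.11 without the filter and ranged from -0.12 to -0.07 without single libraries. The cause of these changes was not tested. Ndufv3 went to -0.02 with length offsets.

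Less the chromosome's median, the members' medians were -0.10 on chromosome 4, -0.33 on 6, 0.10 on 8 and -0.13 on 10. Less the neighbours' median, an alternative chosen after seeing the data, they were -0.10, -0.23, 0.12 and -0.09, so the sign turned on chromosomes 4 and 8. The median of chromosome 6 was -0.52 with upper quartile scaling and -0.53 without the filter, and that of chromosome 10 was -0.43 with length offsets. In CPM the sums changed by -7.92% (complex I), -3.09% (II), -6.18% (III), -4.07% (IV), -16.0% (V) and -10.4% (all members). The cause of the difference between CPM and TPM sums was not tested.

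With the replicate number as a block, 45 members were lower and 15 higher, as without it, and single calls of 2 members differed. The numbers do not pair the samples, since deviations of same-numbered libraries correlated at -0.078, 0.0452 and 0.0147. Depth limits the testis and muscle forms of complex IV, with at most 52 counts over a line.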
